A study of Strongylocentrotus purpuratus with 10 samples.

Results

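Ribosomal protein genes were described in blastulae of the sea urchin Strongylocentrotus purpuratus after knockdown of Brachyury, a T-box transcription factor of the early embryo. They were taken from the authors' deposited table of differential expression as every gene whose description holds "ribosomal protein" and not "kinase", or whose sea urchin name begins with Rpl, Rps, Mrpl or Mrps and a digit. Of its 3542 genes, 88 met the rule, 80 of them for the cytosolic ribosome (47 of the large and 33 of the small subunit) and 8 for the mitochondrial ribosome (2 of the large and 6 of the small subunit).

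RNA was sequenced from whole embryos at the blastula stage, 24 h after fertilisation. One group comprised 3 libraries labelled as wild type control, and the other 3 libraries of embryos injected as zygotes with 2 to 4 pl of a translation-blocking brachyury morpholino at 200 µM. Nothing in the labels tells if the controls received any injection, so morpholino injection itself and the loss of Brachyury cannot be told apart. For Brachyury binding, chromatin of fixed whole embryos of the same stage gave 2 antibody libraries, paired with 1 input library each. Brachyury itself (LOC576774) is listed at 1.18 on the log2 scale in the authors' deposited table (implied standard error, explained below, 0.26, adjusted p = 8.71e-05), and as the morpholino blocks translation its RNA does not check the knockdown. The files give no value per library and no read total, so depth is unknown and no level or spread between replicates can be shown for any gene. The source was whole embryos, so fewer cells that express a gene and less RNA per cell cannot be told apart.

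The cytosolic ribosome joins a small subunit, which reads the messenger RNA, to a large subunit, which forms the peptide bonds. Most of its proteins are needed in about equal number, and in animals their genes are among the most strongly expressed and are usually adjusted together. Mitochondria carry ribosomes of their own, whose proteins are encoded by a separate set of nuclear genes. In early embryos maternal ribosomes carry much of the protein synthesis, while the embryo's own ribosomal protein genes become active as development proceeds.

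Almost all genes of the cytosolic ribosome stood on the negative side, most of them at similar values. Of 80 genes 79 had a negative log2 fold change in the authors' deposited table, against 51.6% of all its genes, and 1 had a positive value, against 48.4%. Their median was -1.21, a factor of 2.31 between the groups, while the median over all table genes was -0.51. Among the negative table genes alone the median was -1.19, so the cytosolic median is close in size to that of negative genes in general. All 33 genes of the small subunit and 46 of the 47 genes of the large subunit were negative. The file header does not say which group is the numerator of the fold change, so a negative value means lower in morphants only if morphants were divided by controls, and signs are given here without that reading. Every gene of the table has an adjusted p under 0.05 by the authors' test, so passing that threshold is a condition of being listed and is no finding about these genes.

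**Figure D1:**
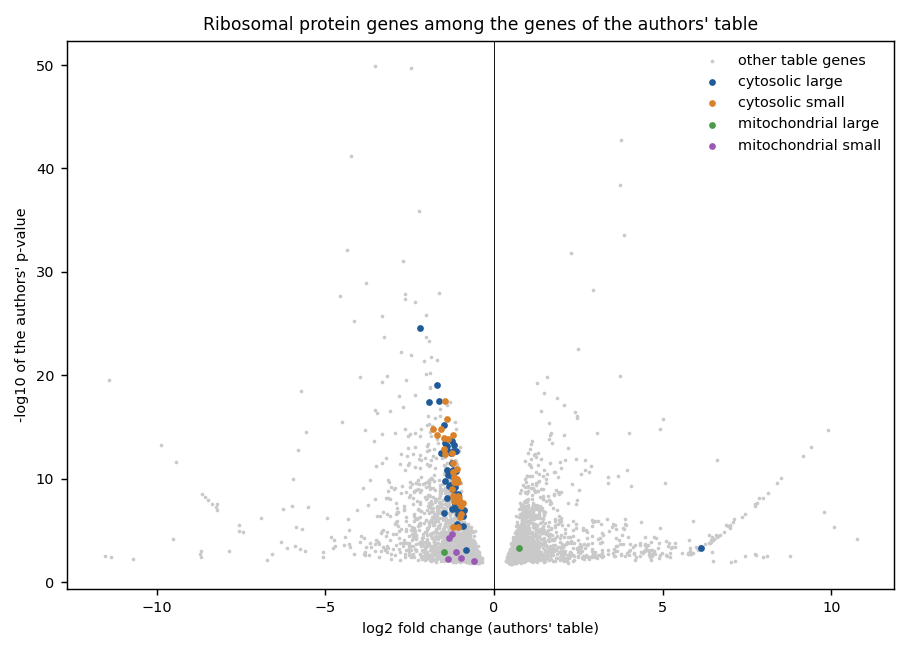
Log2 fold change (horizontal axis) against -log10 of the p-value (vertical axis) for the 3542 genes of the authors' deposited table, with ribosomal protein genes coloured by ribosome and subunit. The cytosolic genes form a narrow column near -1.2, and 1 gene of the large subunit stands apart at 6.13.

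Most proteins of the ribosome were represented. Of 80 proteins on a list of the human cytosolic ribosome, 70 (87.5%) had at least 1 gene among those found by the rule, 41 of 47 in the large and 29 of 33 in the small subunit. For comparison, 11.8% of the 27446 annotated protein-coding genes stand in the table. The first share counts proteins, which can have more than 1 gene, and the second counts genes, so they are only roughly comparable. Another 4 proteins are present under names that the rule does not catch, which makes 74. They are the laminin-binding protein RPSA (LOC373183, -1.30), the ubiquitin-like fusion Fau that carries RPS30 (LOC577982, -1.20), the ubiquitin fusion that carries RPL40 (LOC584839, -0.95) and the scaffold protein Rack1 (LOC576894, -1.02), all given as log2 fold changes of the authors' deposited table. No gene was matched for RPL14, RPL22, RPL29, RPL38, RPLP0 or RPS29. Such a gene may have missed the threshold, gone unmeasured or carry another name.

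Values of the cytosolic genes lay close together. The negative genes ran from -2.21 to -0.84 in the authors' deposited table, and the middle range, from the lower to the upper quartile, was -1.38 to -1.09. Over all table genes 9.54% fell in that middle range, and 18.5% of the negative ones did. The standard deviation among the 79 negative genes was 0.24. An implied standard error was computed for each gene as the value that gives the authors' p-value in a two-sided normal test of the fold change, and its median over the cytosolic genes was 0.19. The value of 73 of the 79 negative genes (92.4%) was within 1.96 implied standard errors of their shared median. These errors are not independent, since all genes were measured in the same 6 libraries.

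**Figure D2:**
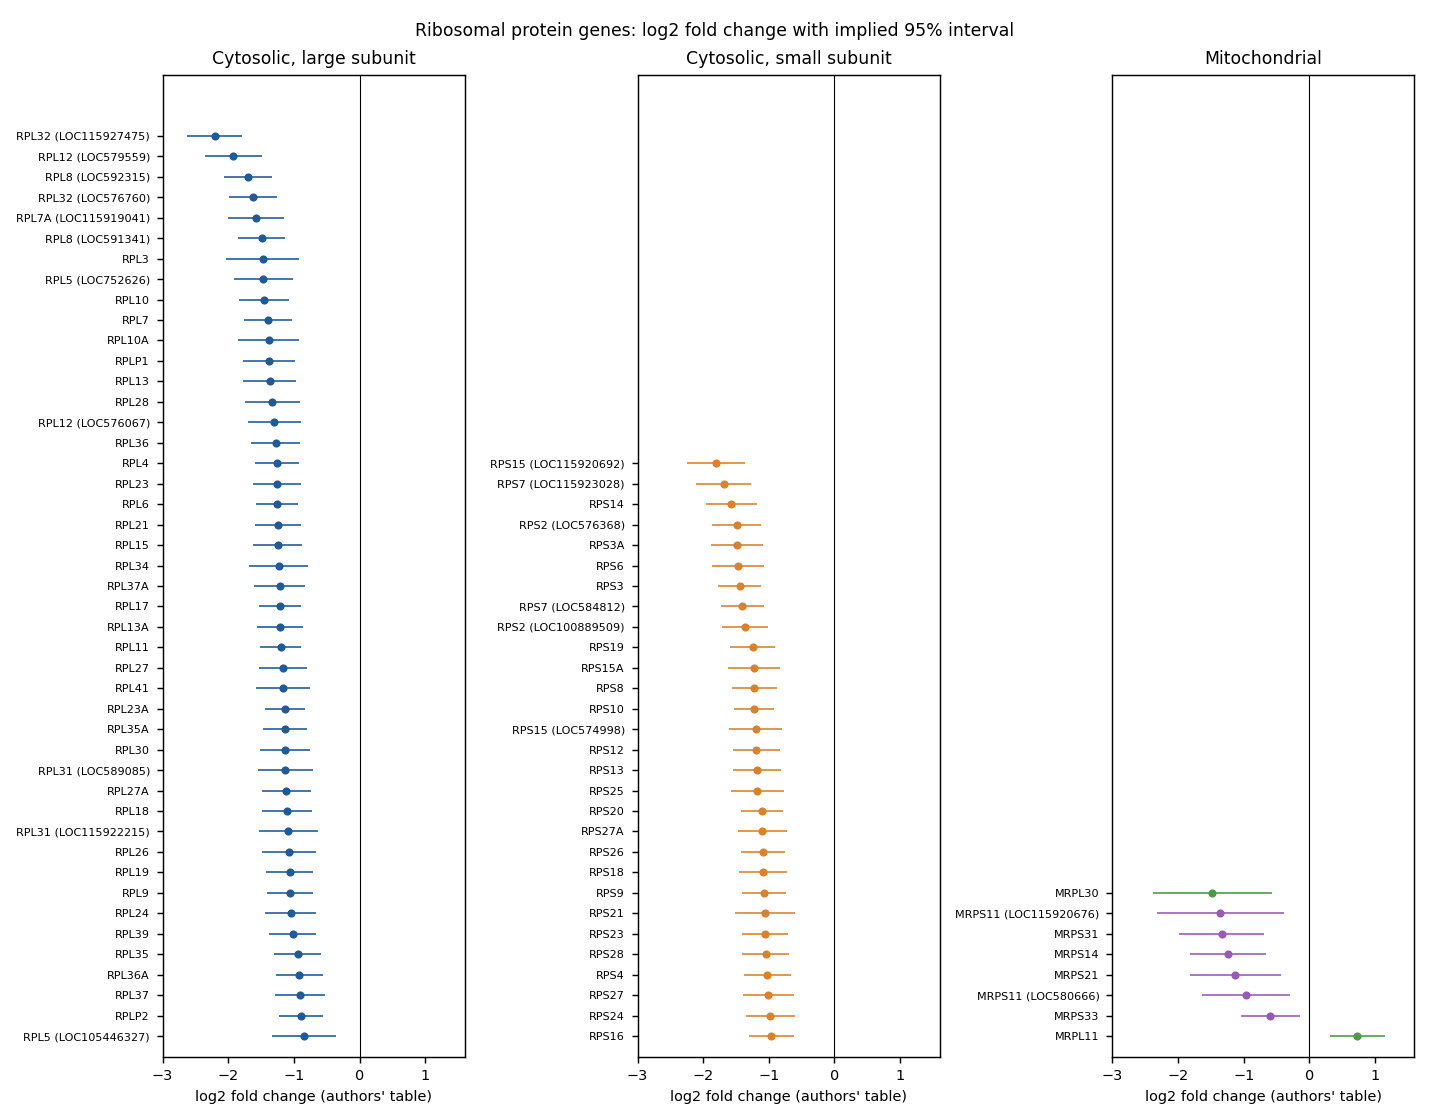
Log2 fold change of the authors' deposited table (points, horizontal axis) for the ribosomal protein genes, leaving out those of 4 cytosolic proteins, ordered within their class, with a bar of 1.96 implied standard errors on each side. All drawn cytosolic genes lie between -2.21 and -0.84, the mitochondrial gene MRPL11 is positive, and the positive Rpl7a copy at 6.13 is outside the axis and not drawn.

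The medians of both subunits were close. The median was -1.22 for the large and -1.19 for the small subunit in the authors' deposited table, and the difference was not tested. The small subunit ran from -1.80 to -0.92. The large subunit, leaving aside its positive gene, ran from -2.21 to -0.84.

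By p-value, ribosomal protein genes were frequent among the first genes of the table. Among the 500 genes with the lowest p-values 64 were cytosolic ribosomal protein genes (12.8%), although ribosomal protein genes of both kinds make up 2.48% of the table, and 78 were among the first 1000. Of those first 500 genes 69.8% were negative. At an adjusted p under 0.01, 79 cytosolic genes remained, all negative, where 34.5% of table genes were negative and passed. With a log2 fold change of -1 or lower there were 71 of the 80 cytosolic genes, against 32.6% of table genes. These shares of the table include its positive genes. Of the 1828 negative table genes alone, 1223 had an adjusted p under 0.01 and 1154 a value of -1 or lower.

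Proteins of the peptidyl transferase centre, where the large subunit joins amino acids, had some of the more negative values. Rpl3 (LOC586477), which reaches toward that centre, stood at a log2 value of -1.48 (implied standard error 0.28, adjusted p = 4.9e-06) in the authors' deposited table. Rpl10 (LOC582823), which joins the large subunit in its last maturation steps, had -1.46 (0.19, adjusted p = 6.3e-12) there. Both genes of Rpl8, a core protein beside the same centre, stood at -1.70 (LOC592315, adjusted p = 3.56e-17) and -1.49 (LOC591341, adjusted p = 1.61e-13) in the authors' deposited table. The 4 genes of this group had a median of -1.49, and the group was drawn up with their values known.

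The stalk of the large subunit recruits elongation factors. Its base protein Rpl12 had 2 genes in the authors' deposited table, at -1.93 (LOC579559, adjusted p = 1.03e-15) and -1.30 (LOC576067, adjusted p = 2.5e-08). The acidic stalk proteins Rplp1 (LOC589183) and Rplp2 (LOC586345) stood at log2 values of -1.38 and -0.89 in the authors' deposited table, with implied standard errors of 0.20 and 0.17. Rplp2 is thus among the least negative cytosolic genes, and the stalk anchor Rplp0 has no matched gene.

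Rpl5 and Rpl11 travel with the 5S ribosomal RNA into the large subunit, and in mammals they also bind the p53 regulator Mdm2 when ribosome assembly fails. Rpl11 (LOC581803) stood at a log2 value of -1.20 (0.16) in the authors' deposited table. Of 2 genes named Rpl5, LOC752626 had -1.47 (0.23), while LOC105446327, which is described as uncharacterized, had -0.84 (0.25) and an adjusted p of 0.0054, the highest of the negative cytosolic genes. It is the cytosolic gene closest to zero and stands 1723 bp from the other one on the same inferred scaffold.

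Proteins that line or surround the tunnel through which the new chain leaves had values near or above the class median. In the tunnel wall, Rpl4 (LOC578192) and Rpl17 (LOC586769) had -1.26 and -1.21, and the small protein Rpl39 (LOC585835) -1.02, in the authors' deposited table. Around the tunnel's outer end, Rpl23a (LOC588157) had -1.14, Rpl26 (LOC585872) -1.08, Rpl19 (LOC593861) -1.07 and Rpl35 (LOC591809) -0.94 in the authors' deposited table. Both Rpl31 genes stood there at -1.13 (LOC589085) and -1.09 (LOC115922215). The 6 genes at the outer end had a median of -1.08 and a standard deviation of 0.07, below their median implied standard error of 0.20. Both groups were drawn up with the values known, and both Rpl31 genes carry the same transcript model. The small spread is therefore not read as a result about the outer end.

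The most negative ribosomal protein gene was 1 of 2 Rpl32 genes. LOC115927475 stood at a log2 value of -2.21 (implied standard error 0.21, adjusted p = 1.66e-22) in the authors' deposited table, which places it at position 21 of the table by p-value. The other Rpl32 gene (LOC576760) had -1.62 (0.19, adjusted p = 9.8e-16) there. Other genes of the large subunit with an adjusted p in the lower range were Rpl6 (LOC583048, -1.26) and Rpl7 (LOC755731, -1.40) in the authors' deposited table. At the weak end stood Rpl37 (LOC591582) at -0.91 and Rpl36a (LOC592965, described as L44) at -0.92 there. Another 18 large-subunit genes lay between -1.39 (Rpl10a, LOC586056) and -1.05 (Rpl24, LOC587551) in the authors' deposited table.

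In the small subunit, Rps3 and Rps2, at the entry of the messenger RNA channel, were among the more negative. Rps3 (LOC593744), which sits at that entry, stood at a log2 value of -1.44 (implied standard error 0.17, adjusted p = 8.75e-16) in the authors' deposited table, the lowest adjusted p of the subunit. Its neighbour Rps2 had 2 genes there, at -1.49 (LOC576368) and -1.37 (LOC100889509). Rps30 (LOC577982), listed at the same entry but not caught by the rule, had -1.20, near the subunit's median of -1.19. The group was drawn up with the values known. At the exit side, Rps14 (rps14) had -1.57 (0.20, adjusted p = 3.34e-13), Rps26 (LOC576654) -1.09 and Rps28 (LOC764436) -1.05 in the authors' deposited table. Proteins of the mRNA path were spread over much of the range of the subunit.

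At the decoding site, 1 of 2 Rps15 genes gave the most negative value of the small subunit. It was -1.80 (LOC115920692, implied standard error 0.23, adjusted p = 1.88e-13) in the authors' deposited table, while the other Rps15 gene (LOC574998) had -1.20 (0.21). Rps23 (LOC590530), which touches the same site, had -1.06 there. Rps6 (LOC577989), the ribosomal target of S6 kinase, had -1.47 (0.20, adjusted p = 4.44e-11) in the authors' deposited table. Rps27a (LOC579019), made as a fusion with ubiquitin, had -1.10. Rps3a (LOC575056) and Rps19 (LOC578158), a protein of small-subunit assembly, stood in the authors' deposited table at -1.48 and -1.25. Among the least negative genes of the subunit were Rps16 (LOC577040, -0.96) and Rps24 (LOC592738, -0.98) there, and the highest adjusted p of the subunit was 9.34e-05, for Rps21 (LOC105441189, -1.06).

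The only cytosolic gene with a positive value was 1 of 2 genes for Rpl7a, a protein of the large subunit. LOC574574 is listed at 6.13 on the log2 scale in the authors' deposited table (adjusted p = 0.0148), and its implied standard error of 1.76 compares with a next highest of 0.28 among cytosolic genes. Its implied 95% interval ran from 2.69 to 9.58. The other Rpl7a gene (LOC115919041) had -1.57 (0.22, adjusted p = 3.59e-11) there. Both carry the same sea urchin transcript model and the same description, so how the authors' counting split reads between the copies is unknown, both values are uncertain, and its part in the opposite signs was not tested.

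A pair of genes in the table was found for 10 cytosolic proteins and 1 mitochondrial one. In 10 of these 11 pairs both genes were negative. The Rpl31 pair, given above, differed by 0.04 in the authors' deposited table. The 2 Rps7 genes stood at -1.69 (LOC115923028) and -1.40 (LOC584812), 0.29 apart. Larger gaps of 0.59 to 0.63 separated the pairs of Rpl32, Rps15, Rpl5 and Rpl12, which comes to between 1.85 and 2.08 times the error that the implied errors would give for independent genes. In 10 of the 11 pairs, all but Rpl5, both genes carry the same transcript model. Over all table genes, 294 such pairs exist, and 25 of them (8.50%) have opposite signs, as does 1 of the 10 ribosomal pairs. The median difference within a pair was 0.34 for the ribosomal pairs and 0.33 for the other 284.

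**Figure D3:**
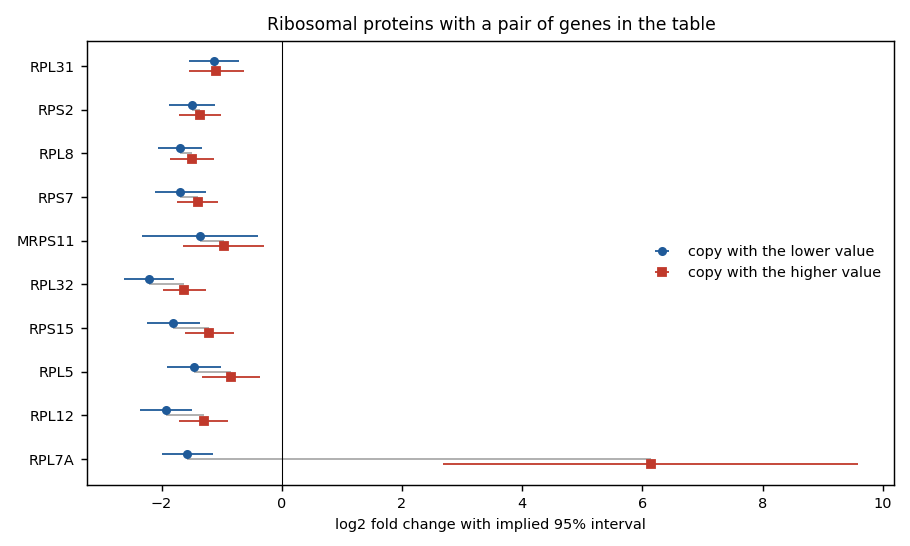
Log2 fold change of the authors' deposited table (horizontal axis) for 10 of the 11 ribosomal proteins with a pair of genes, with bars of 1.96 implied standard errors. The genes of a pair overlap in their bars for every protein drawn but Rpl7a, where they stand at -1.57 and 6.13.

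Proteins with 1 gene in the table varied less than those with a pair. The 60 such cytosolic genes were all negative, with a median of -1.17, a range of -1.57 to -0.89 and a standard deviation of 0.16 in the authors' deposited table. The 20 genes that come in pairs had a median of -1.43, and the 19 negative ones a standard deviation of 0.33. With 1 gene per protein, the one with the lowest adjusted p, the 70 proteins were all negative, with a median of -1.20.

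The labels of some genes rest on transferred annotation. The description of 57 cytosolic genes names a ribosomal protein under the gene's own ID, and that of 15 names one under another gene's ID. For the other 8 no description names a ribosomal protein, whatever ID it carries. Among them are Rps12 (LOC590740, described as a nucleolar protein, -1.19) and Rpl36 (rpl36, described as a membrane protein, -1.28) in the authors' deposited table. The 57 genes named under their own ID had a median of -1.18, with 56 negative. The 15 named under another ID had a median of -1.33 and the 8 others -1.18, all of them negative. RefSeq lists 85 of the 88 genes as protein-coding. Rpl41 (LOC575035) and Rps28 are listed as long non-coding RNAs and Rpl39 as another RNA class.

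Genes of the mitochondrial ribosome were few and their values less certain. Of 8 genes 7 were negative, where 51.6% of table genes are, with a median of -1.18 and a median implied standard error of 0.34. In the small subunit, Mrps31 (LOC582980) and Mrps14 (LOC115919962) stood at log2 values of -1.33 (adjusted p = 0.00087) and -1.24 (adjusted p = 0.00059) in the authors' deposited table. Mrps21 (LOC580522) had -1.13 and Mrps33 (LOC753483) -0.60 there, with adjusted p of 0.0118 and 0.0424. The 2 genes of Mrps11 stood at -1.36 (LOC115920676, adjusted p = 0.0347) and -0.97 (LOC580666, adjusted p = 0.0427) in the authors' deposited table, both just inside the threshold. They are 9763 bp apart on the same inferred scaffold.

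The 2 genes of the mitochondrial large subunit that met the rule had opposite signs. Mrpl30 (LOC594557) stood at a log2 value of -1.48 (implied standard error 0.46, adjusted p = 0.0116) in the authors' deposited table. Mrpl11 (LOC580926), a protein of the mitochondrial stalk base, had 0.73 (0.21, adjusted p = 0.0041), and its name in the table is spelled MPRL11. An adjusted p under 0.01 was found for 3 of the 8 mitochondrial genes, Mrps14, Mrps31 and Mrpl11, for 79 of the 80 cytosolic genes and for 62.4% of all table genes. With so few genes listed, and no value for those that missed the threshold, the direction of the mitochondrial set as a whole cannot be read from this table.

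Factors that work on the ribosome during translation were taken from a list of names. Of 15 listed genes, 14 were negative, where 51.6% of table genes are, with a median of -0.83, after 14 genes caught only by a similar name had been removed with their values in view. Before that removal 22 of 29 were negative. Elongation factor 2 (LOC115920562), which moves the ribosome along the messenger RNA, had -2.01 (adjusted p = 1.14e-23) in the authors' deposited table. The 2 genes of Tpt1, whose vertebrate counterpart shares the pyrimidine-rich start of ribosomal protein messages, had -1.89 (LOC590941) and -0.93 (LOC115922790) there. Initiation factor 3 subunit M (LOC589955) had -1.75 and the elongation factor 1B subunits -1.03 (eef1G) and -0.94 (eef1Bb) in the authors' deposited table. Elongation factor 1 alpha (LOC548620), the polyA-binding protein (pabp) and initiation factor 5A (LOC580746) had -0.66, -0.50 and -0.47 there. The positive gene was initiation factor 1A (LOC581190) at 0.51. Rack1, given above, is counted in this list.

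Genes that build ribosomes had values of both signs. Of 23 genes of the ribosome biogenesis list 17 were negative and 6 positive, where 51.6% of table genes are negative, with a median of -0.82. These are counts of genes and not of proteins. Some negative genes share a description, as for Heatr1 and Polr1c, while no positive ones do. Both genes of fibrillarin, the enzyme that methylates ribosomal RNA, were negative at -1.43 (LOC752335, adjusted p = 5.18e-07) and -1.03 (LOC591797) in the authors' deposited table. The processing protein Rrp1 (LOC594061) had -1.16, pescadillo (LOC591435), of large-subunit assembly, -0.89, and the snoRNP core protein Nop56 (LOC115923981) -0.73 there. A nucleolin-like gene (LOC105445258) stood apart at -9.42 (implied standard error 1.35).

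The 6 positive biogenesis genes ran from 0.46 to 1.35. Nmd3 (LOC583639), the adaptor that exports the large subunit from the nucleus, stood at a log2 value of 1.35 (0.21, adjusted p = 9.76e-09) in the authors' deposited table. The gene described as the GTPase Lsg1 (LOC589934, named Gtpbp4L in the table), which releases Nmd3 in the cytoplasm, had 1.10 (0.25, adjusted p = 0.00015). The maturation protein Sbds (LOC588936), which frees the new large subunit for translation, had 2.18 (0.29, adjusted p = 1.27e-11) there, and ribosome production factor 1 (LOC592162) had -0.59 (0.23, adjusted p = 0.040). Neither of these last 2 is on the list, and both were named after their values were seen. The other positive genes of the list were a subunit of RNA polymerase I (LOC105446422, 0.69), Imp4 (LOC583717, 0.68), Ubtf, the activator of ribosomal RNA transcription (LOC593781, 0.58), and Wdr43 (LOC592550, 0.46) in the authors' deposited table.

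**Figure D4:**
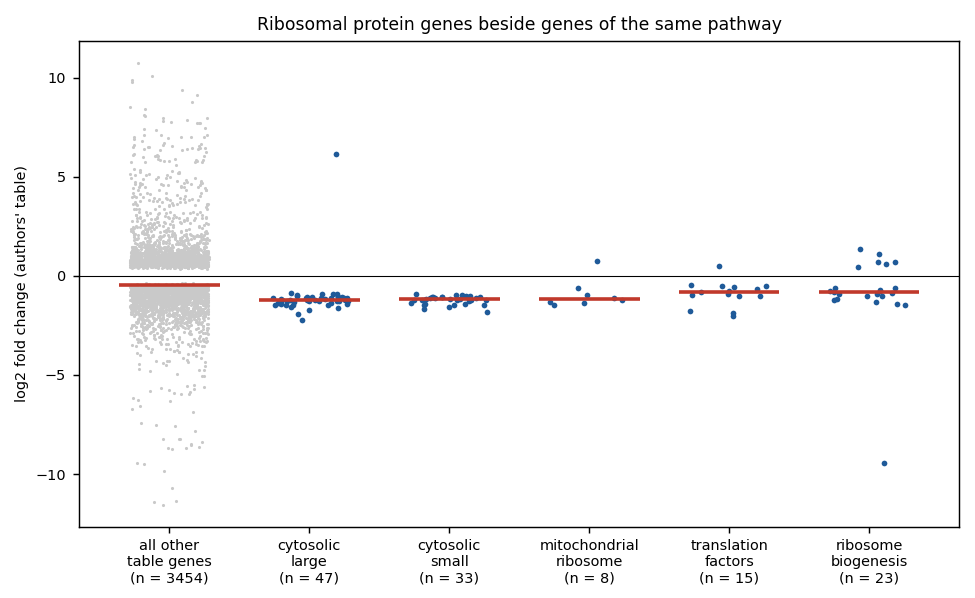
Log2 fold change of the authors' deposited table (vertical axis) for each gene (points) of the 2 cytosolic subunits, the mitochondrial ribosome, the translation factors and the ribosome biogenesis list, beside the other 3454 table genes, with the median of each group as a bar. The cytosolic genes are bunched near -1.2, while biogenesis genes lie on both sides of zero.

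Regulators of growth gave values of both signs. Myc (LOC373385), which in vertebrates drives genes of ribosome production, stood at a log2 value of -0.92 (0.21, adjusted p = 0.00021) in the authors' deposited table. Raptor (LOC586135), the partner of the growth kinase Tor, had 0.65 there. The 2 genes named Larp1, after a protein that in mammals binds the start of ribosomal protein messages, are described as its relative 1B and had opposite signs, at 0.42 (LOC575659) and -0.94 (LOC115922186) in the authors' deposited table. Larp4 (LOC593659) had 0.70 there, and the stress gene Gadd45 (LOC100893493), a p53 target in mammals, 1.42. The part of these genes in the ribosomal values was not tested. A list of mitochondrial translation genes held 2 in the authors' deposited table. They were Ict1 (LOC762829), described as a mitochondrial peptidyl-tRNA hydrolase, at -1.08 and a mitochondrial proline tRNA ligase (LOC115922533) at 3.03. Genes caught only by a similar name had been removed from the growth list and from this one. Before that removal 7 of 9 growth genes and 3 of 5 mitochondrial translation genes were positive.

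Brachyury peaks were assigned to a smaller share of ribosomal protein genes than of all table genes, but ribosomal protein genes are also shorter. The 21 large scaffolds could be paired with blocks of the RefSeq gene table, in which gene positions run in order, and 85 of the 88 genes lie on them. Each peak was assigned, by its midpoint, to the closest gene span if that lay no more than 10 kb away. None of the 85 genes received 1 of the 490 combined peaks, where 2.48% of table genes did, and none received a peak of antibody library 1, where 5.57% did. Of 7459 peaks in the longer list of antibody library 2, 8 genes received 1 each (9.41%), against 23.3% of table genes. Ribosomal protein genes are short, their median span being 6026 bp where that of the table genes on these scaffolds was 15391 bp. Among the 373 table genes with spans of 4342 to 7347 bp, the middle range of the ribosomal genes, 1.07% had a combined peak, 1.07% a library 1 peak and 9.12% a library 2 peak. These 373 genes include 43 of the ribosomal genes, of which 1 had a library 2 peak and none a combined or library 1 peak. The other ribosomal genes with a library 2 peak have spans outside this range. The shares above are of all 85 ribosomal genes and are not matched for length. The part of span in their lower share was not tested, and that share is not read as a result about them.

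The counts were higher when any peak within 10 kb of a gene span was taken, also where another gene was closer. There was then 1 ribosomal gene with a combined peak (1.18%), against 2.99% of all table genes and 1.34% of the short ones. With library 1 there were 3 (3.53%), Rps16, Rpl4 and Rpl6, against 8.05% and 3.75%. With library 2 there were 15 (17.6%), against 30.4% and 17.7%. The short genes again include 43 of the ribosomal genes, while the ribosomal shares are of all 85, so these shares are not matched for length.

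These 8 peaks carried the following values. Their scores, the authors' own, ran from 0.55 at Mrps11 (LOC580666) to 1.15 at Rpl15 (LOC574664). The Rpl15 peak (NW_022145606.1 from 50173239 to 50173522 in Spur_5.0) had a fold of 2.34 over input and a false discovery rate of 6.31%, the only one under 10% among the 8. Rpl3 held a peak of score 0.90 with a fold of 3.99 (NW_022145599.1 from 17186560 to 17186843) and a false discovery rate of 10.02%. The Mrps11 peak had the highest false discovery rate of the 8, 37.61%. The others lay in Rps20, Rpl37a, Rpl23 and Mrpl30, and 348 bp beyond the end of Rps25, with false discovery rates of 11.06% to 35.14%. The nearest combined peak to any of the 85 genes was 3.6 kb from Mrpl30 but was closer to another gene, and the median distance to a combined peak was 931 kb. None of the 8 genes with a library 2 peak had a library 1 peak within 10 kb, the nearest being 12.8 kb from Rpl15. Rpl4 and Rpl6, not among the 8, had peaks of both libraries within 10 kb, all closer to another gene. For libraries 1 and 2 these lay 4941.5 and 8530.5 bp from Rpl4, and 7802.5 and 8024.5 bp from Rpl6. The scaffold of each gene is inferred.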

How the data were processed

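RNA-seq compared 3 morphant with 3 control libraries, and ChIP-seq gave 2 antibody libraries with their inputs. The submitters' processing notes name BWA 0.7.17, DESeq2 1.28.1, Salmon 0.11.3 and Trimmomatic 0.38 without saying what each was used for. Log2 fold changes and p-values (raw and adjusted) are those the authors deposited, and the adjusted p falls in 1645 of 3541 steps between genes ordered by raw p, so the orders differ. Peak score, antibody and input signal, fold (ratio), distribution score (a fraction) and false discovery rate in percent are the authors' values per the file headers; their scaling and the peak caller are not given in the sources used here.

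Members and lists were chosen with earlier results of these data known, and the role groups after their values were seen. All 88 genes matched the RefSeq Spur_5.0 gene table. Members may all be named, except that the values of 4 cytosolic proteins are not reported singly here; values in full go to the lowest and highest adjusted p, the extremes, minority signs, pairs and genes with a peak. The authors' test is the only one used, as the table has no column per library. The design's motif and protein comparisons are not analysed here, since no sequence table was at hand, and annotated genes were replaced by a list of 80 proteins. From the lists, 20 genes matched only by a similar name were removed. Implied errors and peak assignment were tested on simulated data, and class assignment on written example names and descriptions. Figures were drawn with matplotlib 3.10.9 and values computed with scipy 1.17.1, pandas 2.3.3 and numpy 2.4.6 under Python 3.11.15.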

Additional observations from a re-analysis of the deposited data

How the results depend on the processing

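The count of negative cytosolic genes stayed between 56 and 83, and their median log2 fold change between -1.22 and -1.18, across the following settings. The threshold was tightened to an adjusted p of 0.01, or to log2 values of 1 or more in size. Members were taken by name or by description alone, or with 1 gene per protein. Last, only genes described as ribosomal proteins under their own ID were kept, or the 4 further ribosomal proteins were added. These last 2 settings were chosen after seeing the data. For the mitochondrial ribosome the 7 negative genes became 2 at an adjusted p under 0.01 and 2 with members by name alone, because fewer genes are then counted; the median stayed negative, from -1.33 to -1.05. The count of ribosomal genes with a peak was 0 for the combined set at 5, 10 and 50 kb and for its higher-scoring peaks, 0 for antibody library 1, and 8 for antibody library 2, whose list is longer. With any peak within 10 kb, chosen after seeing the data, it was 1, 3 and 15 for these 3 lists. Biogenesis genes matched by name alone were negative for 15 and positive for 3. No paired analysis was possible because the files give only the authors' statistics, for which leaving out a library is not possible either. Depth is unknown, so a gene missing from the table cannot be called unchanged.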

Other observations

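The authors' own class of ribosomal proteins holds 84 genes, 81 negative and 3 positive. Besides the positive Rpl7a copy and Mrpl11, the third positive gene is LOC589123, which has no name or description in the files used here. The authors' deposited table lists it at 2.27 on the log2 scale, with an adjusted p of 2.13e-29, and it stands at position 9 of the table by p-value. Another gene of the class (LOC100888621), described as a cullin-associated protein, had -1.28 in the authors' deposited table, close to the ribosomal median.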
